A study of Drosophila melanogaster with 24 samples.

Results

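The genes described here are named protein-coding genes of chromosome 4 of Drosophila melanogaster, the small dot chromosome of this fly. They were chosen by name, 43 genes in all, and a row of the deposited comparison was taken when its symbol matched. Of the 43 names, 42 were found among 13234 rows, and the forkhead gene fd102C, annotated from 836986 to 844529, had no row. All 42 carried an adjusted p-value, so none was lost to a filter on low counts. The annotation placed all 42 on chromosome 4, between 32478 (PlexB) and 1271759 (Cadps) in dm6 coordinates, and 1 of them, Thd1, is listed there under the newer symbol Tdg.

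Chromosome 4 is largely packaged as heterochromatin, with histone H3 methylated at lysine 9 and bound by HP1, yet its genes are transcribed. The protein encoded by Pof binds across its active genes, and the methyltransferase encoded by egg, also called Setdb1, methylates histone H3 there. Many of its named genes are regulators first known from development, among them transcription factors of the eye, bristles, nervous system and the Hedgehog and Wingless pathways. In adult fat body, the tissue of fat storage, yolk synthesis and immune secretion, most of these have no textbook role.

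Fat body messenger RNA of virgin w1118 females was sequenced in 24 libraries that form 4 groups of 6. The flies were held for 25 days at 11 °C with ethanol, at 11 °C with S-methoprene (a juvenile hormone analogue) in ethanol, at 25 °C with ethanol, or at 25 °C with S-methoprene in ethanol, the vapour of 10 µL being given every 2 days. A library pooled tissue of 25 flies, and only flies with the ovary state sought for the group were dissected, small ovaries at 11 °C with ethanol and large ones elsewhere, so ovary state differs between groups by selection. No factor or direction is named for the single deposited comparison, so its sides are called positive and negative here and neither was given to a temperature or a treatment.

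The file holds a mean over libraries, a log2 fold change, its standard error (SE) and p-values for each gene, with no value per library, so neither the depth of a library nor the overlap of groups could be given. A gene is called when the authors' adjusted p is under 0.05. Fat body genes were abundant, with means of 53598 normalised counts for Yp2 and 18112 for apolpp in the deposited table. Of the 8 fat body markers, Lsp2, at 8.37, and Fbp1, at 3.38, were close to 0 in that deposited table. Markers of other cells were detected too: summed deposited means were 652 over 16 neuron markers, 2226 over 7 glia markers, 6056 over 12 muscle markers, 2160 over 6 hemocyte markers and 2065 over 9 germline and follicle markers, and no marker was at 0. In bulk RNA, fewer cells of a type and less RNA per cell cannot be told apart.

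The named genes lay mostly on the positive side. Of the 42, 25 were called positive, 3 negative, and 14 were not called. Over all 11399 genes tested in the deposited comparison, 49.0% were called, 27.0% positive and 22.0% negative. The shares of the members were 59.5% and 7.14%. The median log2 fold change was 0.38 for the members and 0.07 for all genes tested. Most shifts were small. Of the 25 positive members, 12 were below 0.5 on the log2 scale, 7 lay between 0.5 and 1, and 6 were at 1 or more, of which 5 had a mean under 25 counts. On the negative side only Syt7 reached a 2-fold difference, at 2.25-fold.

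**Figure D1:**
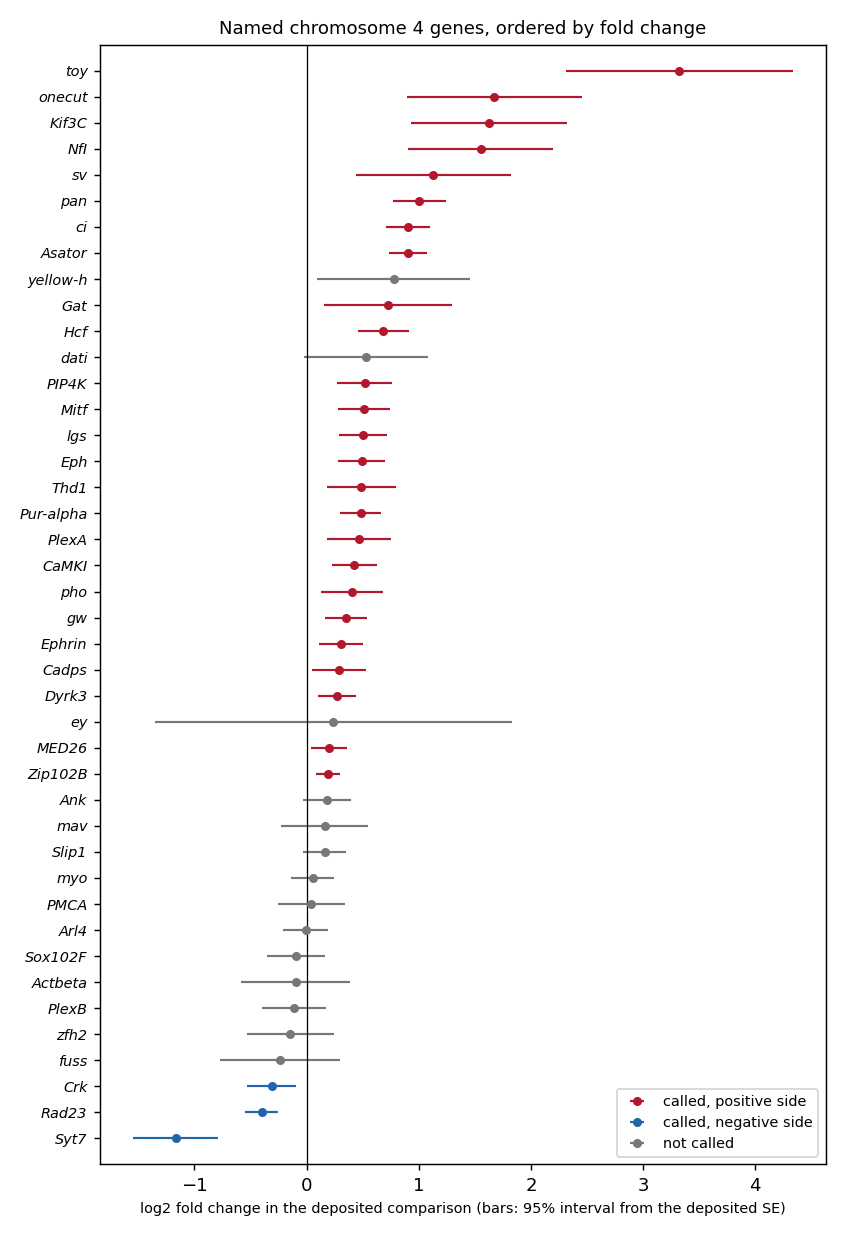
Log2 fold change of each named chromosome 4 gene in the deposited comparison (points), with 95% intervals computed from the deposited SE (bars). Of 42 genes, 25 were called on the positive side (red), 3 on the negative side (blue) and 14 were not called (grey).

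The members were also compared with rows of similar mean. Each member was set beside the 200 other tested rows nearest to it in mean, and the median member stood at percentile 71.25 of their fold changes, with 31 of 42 members above the median of those rows. The 5299 rows that were nearest to any member had 30.0% called positive and 24.6% called negative, and their median log2 fold change was 0.05. In the band of means from 100 to 1000, 16 of 24 members were called positive and 2 negative, against 29.6% and 26.3% of 4368 other rows. Below a mean of 10, 4 of 6 members were called positive, against 24.9% of 2933 other rows. With means from 10 to 100, 3 of 9 members were positive and 1 negative, and the other rows had 26.1% and 26.2%. No test was made of these differences in share.

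Transcript length moved with these counts. The annotated canonical transcript had a median of 4111 bases for the members and of 1835 bases for all tested genes. Over 11362 tested genes the Spearman correlation of transcript length and fold change was 0.185, a description across genes of the same libraries. Among the 22 members with transcripts of 4000 bases or more, 17 were called positive (77.3%), against 43.8% of 1767 other genes of that length. Among the 20 shorter members it was 8, against 23.8% of 9553 other genes. When each fold change was taken against the median of the 200 genes nearest in transcript length and tested with the deposited SE, 16 members were called positive and 6 negative, where 22.6% and 24.2% of all genes were called. The median of the members was then 0.07 in place of 0.38, and the positive share of called members went from 89.3% to 72.7%. Of the 25 positive calls, 15 were kept. What part length plays in the result was not tested.

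**Figure D2:**
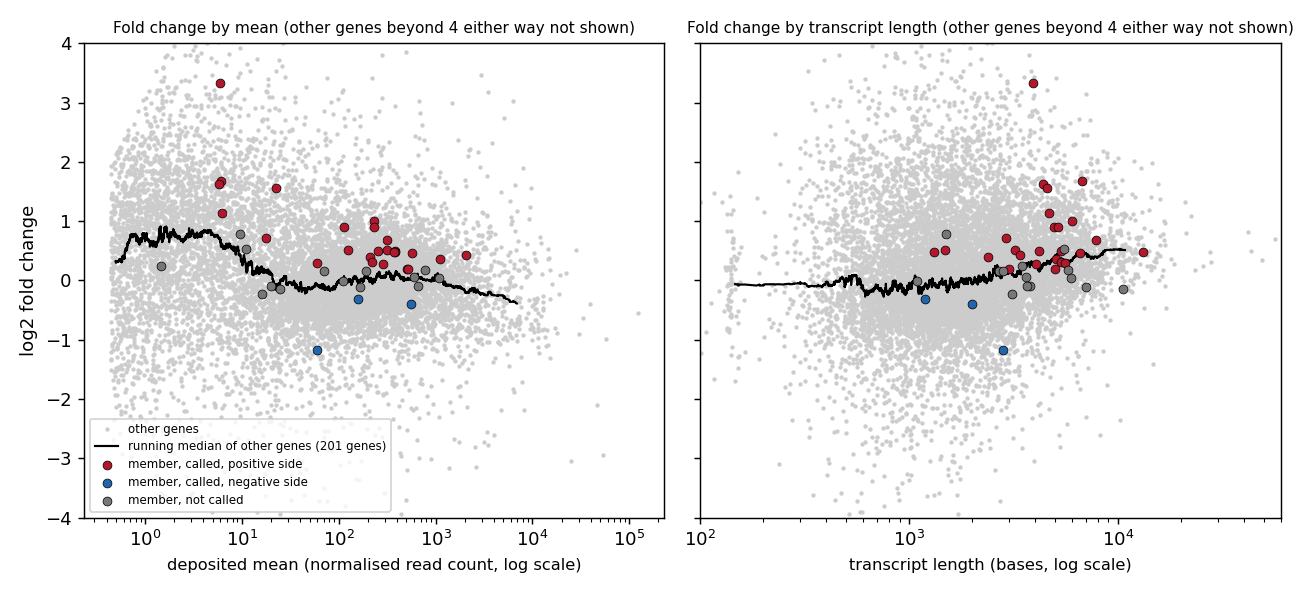
Log2 fold change against deposited mean (left) and against canonical transcript length (right), each on a logarithmic horizontal axis, for other tested genes within 4 of 0 (pale points, running median in black) and for the 42 members (red, positive; blue, negative; grey, not called). The median of the other genes climbs at the longer transcripts, and 22 of the 42 members have transcripts of 4000 bases or more.

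**Figure D3:**
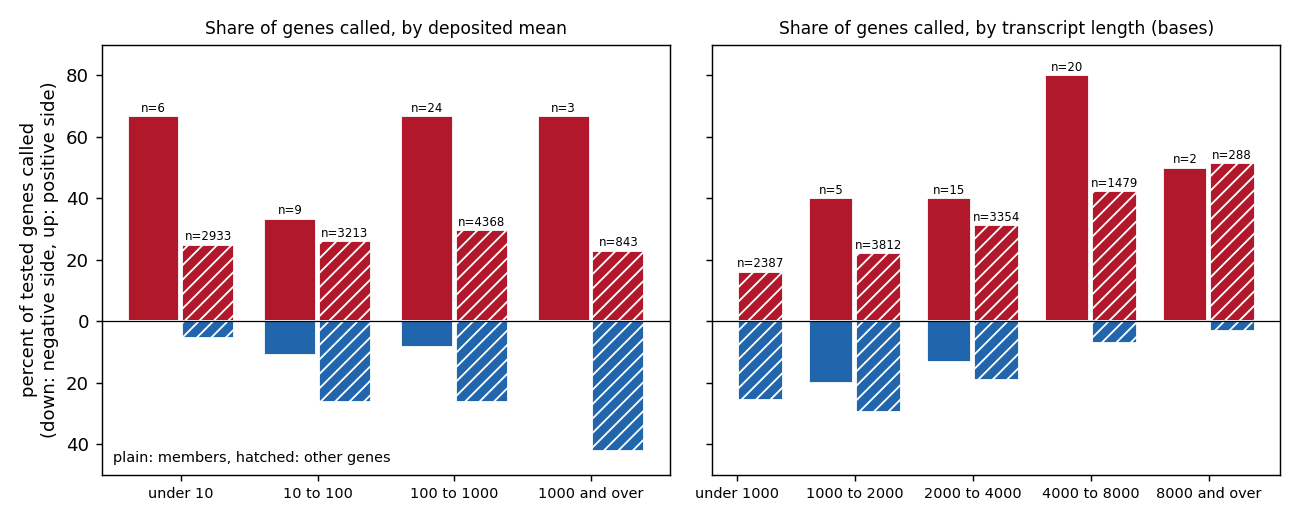
Percent of tested genes called positive (red, upward) and negative (blue, downward), in bands of deposited mean (left) and of transcript length (right), for members (plain) and other genes (hatched), with the number tested above each bar. In the band of 4000 to 8000 bases 16 of 20 members were called positive.

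Other rows of the chromosome were more evenly divided. The annotation places 97 rows on chromosome 4, and of the 55 that are not members 47 were tested, with 14 called positive (29.8%) and 8 negative (17.0%). Their median transcript was 2311 bases. Among the 33 tested protein-coding ones, with a median transcript of 3639 bases, 10 were positive (30.3%) and 6 negative (18.2%). Over the whole chromosome, members included, 43.8% of 89 tested rows were called positive and 12.4% negative. Their median log2 fold change was 0.30 and their median transcript 3462 bases. On X, 2L, 2R, 3L and 3R the positive share ran from 26.1% to 27.7% and the negative share from 20.9% to 23.2%. Median transcripts there ran from 1771 to 2066.5 bases. The non-member genes included the abundant lipoprotein gene apolpp at -0.88 (SE 0.19), the ribosomal protein gene RpS3A at -0.54 (SE 0.12) and the ATP synthase subunit gene ATPsynbeta at -0.31 (SE 0.12), all from the authors' deposited table. CG11076 stood at -0.66 (SE 0.08), CG11155 at -0.44 (SE 0.15) and CG32850 at -0.43 (SE 0.17) in that deposited table. On the positive side it gave, in the deposited table, CG11360 at 0.82 (SE 0.10), the translational regulator 4E-T at 0.59 (SE 0.08), CG1674 at 0.60 (SE 0.23), the calsyntenin gene Cals at 0.38 (SE 0.10), the kinase gene CaMKII at 0.30 (SE 0.09) and the zyxin gene Zyx at 0.29 (SE 0.07). The non-members named above have a mean of at least 50. Below that mean, CG33978 at 1.66 (SE 0.24), CG32017 at 1.44 (SE 0.20) and asRNA:CR44030 at -1.38 (SE 0.27) were among those called in the deposited table.

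Of the 14 transcription factors and their cofactors with a row, 9 were called positive and 0 negative at adjusted p under 0.05, where 27.0% and 22.0% of all genes were called, and their median log2 fold change was 0.52. Against genes of similar transcript length 8 were positive and 2 negative, since lgs lost its call and Sox102F and zfh2 were called negative. The Pax genes gave the widest spread. The authors' deposited table gave twin of eyeless (toy), a Pax6 gene that acts upstream of eyeless in the embryonic eye field, the value 3.32 on the log2 scale (SE 0.51, adjusted p = 1.24e-09), a 10.0-fold difference and the largest of the members. Its mean was only 5.98 counts, and 98.0% of the 200 rows nearest in mean had a lower fold change. Its paralogue eyeless (ey) was almost undetected, with a mean of 1.47 and a value of 0.24 (SE 0.81, adjusted p = 0.829) in the deposited table. The 95% interval ran from -1.35 to 1.83 for ey and from 2.32 to 4.33 for toy, and the difference between them was not tested because the table holds no covariance. The Pax2-type gene shaven (sv), which acts in bristle and cone cells, was at 1.13 (SE 0.35, adjusted p = 0.00387) on a mean of 6.27 in the deposited table. It shares 444 exon bases with Cals on the opposite strand.

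Rows with means as low as those of toy and sv were often positive. The 200 rows nearest in mean to toy had 41.5% positive calls and a median log2 fold change of 0.66, and those nearest to sv had a median of 0.62. Against these rows toy lay far above the median and sv at percentile 71.0. Taken against the 200 tested rows nearest in mean, toy was still called and sv was not.

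Other factors of low mean differed in their calls. The cut-type homeodomain gene onecut, expressed in neurons, was at 1.67 (SE 0.40) on a mean of 6.02 in the authors' deposited table. The 200 rows nearest in mean to onecut had a median of 0.62 and 40.5% positive calls, and 83.5% of them lay below it. The nuclear factor I gene NfI was at 1.55 (SE 0.33, adjusted p = 1.43e-05) on a mean of 22.7 in the deposited table, where similar rows had a median of -0.08. The zinc-finger gene dati was at 0.53 (SE 0.28) in the deposited table and was not called. In the same deposited comparison 27.0% of all genes were called positive and 22.0% negative. Of 16 neuron markers 9 were positive and 0 negative, with a median of 1.18 against 0.07 over all genes. Of these markers 9 had a mean under 10, and their median transcript was 6973.5 bases. Non-member rows with a mean under 10 had a median log2 fold change of 0.66, and those with transcripts of 4000 to 8000 bases 0.32. Glia markers gave 4 positive and 1 negative of 7. The 11 members listed as neuronal or synaptic were ey, toy, dati, onecut, Ephrin, Eph, PlexA, PlexB, Gat, Syt7 and Cadps. Of these, 7 were positive and 1 negative. Against genes of similar transcript length it was 3 and 2, where 22.6% and 24.2% of all genes were called. Without these 11 members 18 of 31 were positive and 2 negative in the deposited comparison, at a median of 0.35. The part of neural RNA in these results was not tested.

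The nuclear effectors of Hedgehog and Wingless signalling were well expressed and higher on the positive side. Cubitus interruptus (ci), the Gli-type factor that carries the Hedgehog signal to genes, had a mean of 229 and stood at 0.90 (SE 0.10, adjusted p = 2.19e-17) in the authors' deposited table, a 1.87-fold difference. Pangolin (pan), the TCF factor of Wingless signalling, had a mean of 233 and stood at 1.0 (SE 0.12, adjusted p = 1.89e-15) in that deposited table. Legless (lgs), the BCL9-type protein that links Armadillo to Pygopus, stood at 0.50 (SE 0.11, adjusted p = 2.92e-05) on a mean of 384 in the deposited table. Among the 200 rows nearest in mean, 94.5% lay below ci and 96.5% below pan. Both ci and pan were also called positive against genes of similar transcript length, while lgs was not.

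Their pathway partners lie on other chromosomes, and over all genes 27.0% were called positive and 22.0% negative. Of the 14 other Hedgehog genes listed, 1 was called positive and 3 negative, with a median of -0.12. The negative ones in the authors' deposited table were Su(fu), which holds Ci in the cytoplasm, at -0.66 (SE 0.08), the adaptor for Ci turnover rdx at -0.65 (SE 0.18), and rasp, which adds palmitate to Hedgehog, at -0.47 (SE 0.12). The transducer smo was at 0.30 (SE 0.13) in the same deposited table. Of the 14 other Wingless genes 5 were positive and 0 negative, with a median of 0.17. The kinase gene sgg was at 0.83 (SE 0.13) and the co-repressor CtBP at 0.27 (SE 0.06) in the deposited table. The Armadillo gene arm itself was at -0.05 (SE 0.05) in it and was not called.

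Among the remaining factors, Mitf, which in flies activates genes of the lysosome and its proton pump, was at 0.51 (SE 0.12) on a mean of 317 in the authors' deposited table. Of 12 lysosomal and Rag genes listed beside it, 2 were positive and 3 negative (median 0.03), among them VhaSFD at 0.31 (SE 0.11), VhaAC39-1 at -0.35 (SE 0.12) and RagC-D at -0.37 (SE 0.07) in the deposited table. Pleiohomeotic (pho), the DNA-binding protein that recruits Polycomb complexes, was at 0.40 (SE 0.14, adjusted p = 0.0118) in the authors' deposited table. Of 14 other Polycomb-related genes 2 were positive and 2 negative, with Scm at 0.34 (SE 0.10) and esc at -0.63 (SE 0.24) in that deposited table. The SoxD gene Sox102F had the highest level of the factors per transcript length, 174 counts per 1000 bases, and stood at -0.10 (SE 0.13) without a call in the deposited table. The homeodomain zinc-finger gene zfh2 and the Ski-family gene fuss were at -0.15 (SE 0.20) and -0.23 (SE 0.27) in the deposited table and were not called. Against genes of similar transcript length Sox102F was called negative at -0.37 and zfh2 at -0.67.

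The 3 members that act on chromatin or with Mediator were called positive, where 27.0% of all genes were, and against genes of similar transcript length 2 were positive and 1 negative. The host cell factor gene Hcf, a scaffold of chromatin complexes, was at 0.69 (SE 0.12, adjusted p = 3.38e-08) on a mean of 319 in the authors' deposited table. Pur-alpha, a single-stranded nucleic acid binding protein, was at 0.48 (SE 0.09, adjusted p = 1.37e-06) in that deposited table, with one of the shorter transcripts, 1319 bases. The Mediator subunit MED26 was at 0.20 (SE 0.08, adjusted p = 0.0343) in the deposited table, and it turned to -0.22 with a negative call when taken against genes of similar transcript length. The 9 listed regulators of this chromosome and of heterochromatin gave 1 positive and 1 negative call. Pof was at 0.52 (SE 0.12, adjusted p = 8.52e-05) and HP1c at -0.79 (SE 0.15), while egg at -0.26 (SE 0.12) was not called in the authors' deposited table.

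The guidance receptors and ligands gave 3 positive calls of 4, beside 27.0% of all genes, and 1 positive and 1 negative call against genes of similar transcript length. Plexin A (PlexA), the receptor of transmembrane semaphorins, had a mean of 576 and was at 0.47 (SE 0.15, adjusted p = 0.0037) in the authors' deposited table. Plexin B (PlexB), the receptor of secreted semaphorins, had a mean of 167 and was at -0.11 (SE 0.15, adjusted p = 0.547) in it. The intervals were 0.18 to 0.75 for PlexA and -0.40 to 0.18 for PlexB, which do not overlap before rounding, and the difference itself was not tested because the file holds no covariance. The receptor kinase gene Eph was at 0.49 (SE 0.11, adjusted p = 2.52e-05) and its membrane-bound ligand Ephrin at 0.31 (SE 0.10, adjusted p = 0.00597) in the deposited table, and Ephrin turned to -0.05 against genes of similar transcript length. On that reference PlexA lost its call, at 0.00638, and PlexB was called negative, at -0.57. Of the 6 other genes in the semaphorin and ephrin list, 2 were positive and 1 negative, with Sema1a at 0.83 (SE 0.27) and Sema2b at -0.73 (SE 0.25) according to the authors' deposited table.

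The 3 ligands of the TGF-beta family on the chromosome were not called. Myoglianin (myo), a myostatin-type ligand, had a mean of 597 and a log2 fold change of 0.06 (SE 0.10), maverick (mav) had a mean of 70.0 and 0.16 (SE 0.20), and the activin gene Actbeta had a mean of 19.9 and -0.10 (SE 0.25) according to the authors' deposited table. The 95% interval of myo was -0.13 to 0.25, while that of Actbeta, from -0.58 to 0.39, was wide. Of the listed receptors of the TGF-beta family, the type I receptor genes babo, at 0.80 (SE 0.14), and tkv, at 0.64 (SE 0.16), were called positive in the deposited table. The type II receptor gene put, at 0.25 (SE 0.07), was also called positive, while the transducer Smox was at -0.34 (SE 0.11) in the deposited table. Of the 9 other genes of this list 3 were positive and 1 negative.

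Kinases and adaptors gave 4 positive calls and 1 negative call of 6, where 27.0% and 22.0% of all genes were called, and against genes of similar transcript length 3 and 0. Asator, a casein kinase related gene, had the smallest p-value of all members, at 0.90 (SE 0.09, adjusted p = 9.62e-24) on a mean of 113 in the authors' deposited table. CaMKI, a calcium and calmodulin dependent kinase, was the most abundant member both by mean, 2055 counts, and per transcript length, 608 counts per 1000 bases. It was at 0.43 (SE 0.10) in the deposited table, where the 200 rows nearest in mean had a median of -0.21 and only 19.0% positive calls. The lipid kinase gene PIP4K was at 0.52 (SE 0.12) and Dyrk3 at 0.27 (SE 0.09) in the authors' deposited table. Against genes of similar transcript length Dyrk3 lay at -0.000937. PIP4K shares 299 exon bases with CG33521 on the other strand. The SH2 and SH3 adaptor Crk was at -0.31 (SE 0.11, adjusted p = 0.013), and Slip1, which binds the Slowpoke potassium channel, at 0.16 (SE 0.10) without a call in that deposited table. The call of Crk was lost at an adjusted p under 0.01 and, at -0.23, against genes of similar transcript length.

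Members of membrane transport and vesicle release differed in direction, with 3 positive calls and 1 negative call of 5, where 27.0% and 22.0% of all genes were called. Against genes of similar transcript length 0 were positive and 1, Syt7, was negative. Syt7, a calcium sensor of vesicle fusion, had the lowest value of the members, -1.17 (SE 0.19, adjusted p = 1.47e-08) on a mean of 60.1 in the authors' deposited table, and 3.0% of the 200 rows nearest in mean lay below it. Cadps, which primes dense-core vesicles, had a like mean of 59.5 and was at 0.29 (SE 0.12, adjusted p = 0.0419) in that deposited table, and at -0.06 against genes of similar transcript length. The GABA transporter gene Gat was at 0.72 (SE 0.29, adjusted p = 0.0292) on a mean of 17.7 in the deposited table, a call lost against rows of similar mean. The zinc transporter gene Zip102B was at 0.19 (SE 0.05, adjusted p = 0.00128), with the smallest SE of the members, and the plasma membrane calcium pump gene PMCA at 0.04 (SE 0.15) in the authors' deposited table. Exons of PMCA share 40.5% of their bases with Rnf11, listed as CG32850 in the file, on the other strand. The sources used here do not give the strand setting of the counts, so reads of such pairs cannot be assigned.

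Of the motor, scaffold and trafficking genes, only the kinesin-2 gene Kif3C was called, at 1.63 (SE 0.35, adjusted p = 2.33e-05) on a mean of 5.74 in the authors' deposited table. The 200 rows nearest in mean to Kif3C had 43.5% positive calls and a median of 0.72. Ankyrin (Ank) was at 0.18 (SE 0.11) and the small GTPase gene Arl4 at -0.01 (SE 0.10) in the deposited table. For Arl4 the 95% interval was -0.21 to 0.20.

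Of the 3 genes of RNA silencing, DNA repair and protein turnover, 2 were called positive and 1 negative, where 27.0% and 22.0% of all genes were called, and against genes of similar transcript length 0 and 1. Gawky (gw), the GW182 protein of microRNA silencing, had a mean of 1112 and was at 0.35 (SE 0.10, adjusted p = 0.000716) in the authors' deposited table, turning to -0.07 against genes of similar transcript length. Of 11 other silencing genes listed, 2 were positive and 3 negative, including Dcr-2 at 0.74 (SE 0.14) and the decapping gene DCP1 at -0.77 (SE 0.11) in that deposited table. Thd1, a thymine DNA glycosylase with the longest transcript of the members, 13125 bases, was at 0.49 (SE 0.16, adjusted p = 0.00557) in the deposited table, and at -0.03 against genes of similar transcript length. Thd1 and zfh2 lie on opposite strands and share 2325 exon bases. Rad23, which carries ubiquitinated proteins to the proteasome, was at -0.40 (SE 0.07, adjusted p = 4.71e-07) on a mean of 558 in the authors' deposited table. The yellow-family gene yellow-h was at 0.78 (SE 0.35, adjusted p = 0.0512) on a mean of 9.5, just short of a call, in the deposited table. It was called positive, at 0.86, against genes of similar transcript length.

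Along the chromosome, positive calls were spread over its length. The first 21 members in order, from PlexB to Ephrin, held 11 positive and 3 negative calls. The last 21, from onecut to Cadps, held 14 and 0, beside 27.0% and 22.0% of all genes. The 3 negative members, Crk, Syt7 and Rad23, all lay between 210224 and 310822, a stretch singled out after the values were seen. Between Crk and Syt7 lies NfI, which was called positive. The last 7 members before the end of the list in order, sv, Kif3C, pho, PIP4K, Mitf, Dyrk3 and Cadps, from 1088798 to 1271759, were all called positive, a run also picked after the values were seen. Within it the non-members Cals and CG32017 were called positive, CG11155 was called negative, and Arf102F and CG33521 were not called. The annotation places toy on the forward strand from 989725 to 1007922, ci on the reverse strand from 47710 to 57041, pan on the forward strand from 69326 to 114270, Asator on the reverse strand from 469409 to 488994, and Syt7 on the reverse strand from 278685 to 306481.

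**Figure D4:**
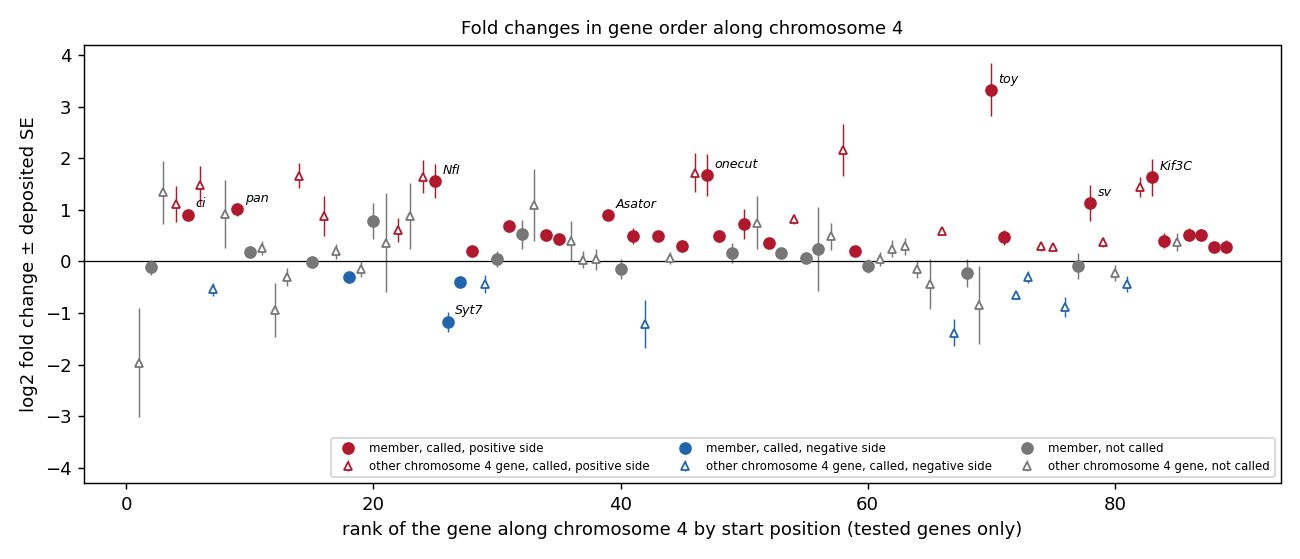
Log2 fold change (points, with deposited SE as bars) of the 89 tested genes of chromosome 4 in order of start position, members as filled circles and other genes as open triangles, coloured by call. Positive members occur from end to end, and the 3 negative members lie among the first 21 members in order.

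In the list of eye determination genes, 2 of 6 non-members were called positive and 0 negative, on low means. These were twin of eyegone (toe) at 1.05 (SE 0.27) and eyegone (eyg) at 0.81 (SE 0.30) in the authors' deposited table, both Pax-type genes. At the same threshold 27.0% of all genes were called positive and 22.0% negative. Markers of muscle gave 8 positive and 0 negative of 12, those of hemocytes 4 and 0 of 6. Germline and follicle markers gave 0 and 7 of 9, and fat body markers 1 and 4 of 8. The part of these cell types in the values of the members was not tested. The p-values set each fold change against its SE, which rests on the spread between libraries within the authors' fit.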

How the data were processed

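The deposited file is 1 comparison. Per the file headers it gives for each gene a mean of normalised read counts over libraries (a signal with no error), a log2 fold change with its SE, a test statistic (a score the authors deposited) and p-values, raw and adjusted. The submitters' processing notes name DESeq2, Bowtie2, cutadapt, Picard, SAMtools, FastQC, Trim Galore and build dm6. The series description speaks of chromatin accessibility, so the tools named may belong to such data. Which of them handled the RNA reads is not known. Versions, read counter, strand setting and contrast were not found in the sources used here. The deposited statistic equals fold change over SE, and the adjusted p-values are Benjamini-Hochberg over 11399 genes, as recomputed. Of 13234 rows, 13187 matched Ensembl release 115 (dm6 coordinates), 666 of them by a synonym. Depth per library is unknown. Precision was read from the SE (median 0.12 for members), and 95% intervals assume a normal error.

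Members, gene lists and alternatives were chosen with earlier results of these data known. Every member is named. Adjusted p is given for the 8 smallest in each direction and for pairs, and also for some members near the threshold, picked after their values were seen. Of other chromosome 4 rows, the 6 smallest adjusted p-values in each direction at a mean of at least 50 are named. Some other rows of the chromosome, picked after their values were seen, are named too. Of each list up to 4 are named. Alternatives were other thresholds, minimum means and references by mean or transcript length. The calls and the centring by mean were tested on simulated fold changes, with far fewer changed rows than were called in the deposited comparison. The centring by transcript length was not simulated. Python 3.11.15, pandas 2.3.3 and scipy 1.17.1 were used. Sequences were not used here.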

Additional observations from a re-analysis of the deposited data

How the results depend on the processing

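The median log2 fold change of the members stayed between 0.30 and 0.38 without members of low mean and without the 11 members listed as neuronal or synaptic. It also stayed there without the 11 members that share exon bases with another gene. Of the remaining 31, 20 were positive and 3 negative, beside 27.0% and 22.0% of all genes. The exon alternative and the counts without neuronal members were chosen after seeing the data. Requiring an absolute log2 fold change of at least 0.5 left 13 positive members and 1 negative, with 20.8% and 14.8% of all genes called, and 11 positive and 5 negative calls among the other chromosome 4 rows. With an adjusted p under 0.01, 21 members were positive and 2 negative, Cadps, Gat, MED26, pho and Crk losing their calls, with 20.8% and 17.4% of all genes called and 12 positive and 5 negative calls among those other rows. With a mean of at least 100 the other rows had 5 positive and 5 negative, and 18 of 27 members were positive and 2 negative, where 29.4% and 29.2% of all genes were called. Against the 200 genes nearest in transcript length the members had 16 positive and 6 negative calls, beside 22.6% and 24.2% of all genes. Cadps, Dyrk3, Ephrin, Gat, MED26, PlexA, Thd1, Zip102B, gw and lgs lost a positive call and Crk a negative one, yellow-h gained a positive call and MED26, PlexB, Sox102F and zfh2 negative ones, and 6 positive calls changed sign, MED26 to -0.22, gw to -0.0715, Cadps to -0.0583, Ephrin to -0.0498, Thd1 to -0.0258 and Dyrk3 to -0.000937; beyond the subtraction itself the cause was not tested. Against the 200 rows nearest in mean 22 members were positive and 3 negative, with 23.2% and 23.7% of all genes called; with 100 rows it was 21 and 3. Low means limit ey, toy, sv, onecut and Kif3C. No paired analysis was possible because the file holds no value per library, and for the same reason no library could be left out.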
